A study of Mus musculus with 4 samples.

Results

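The genes described here are those of cholesterol and fatty acid synthesis, read across astrocyte cultures from 4 mouse brain regions. The list holds 32 genes, and a gene counted as measured where the annotation of the array names it, by its current or a former symbol, as the single gene of a probe set (a group of short probes for a transcript). By this rule 30 of the 32 were found, among 12393 genes named on the array: 19 sterol genes (16 enzymes, the transcription factors Srebf2 and Srebf1 and the transfer protein Stard4) and 11 fatty acid genes. Acat2 and Insig1 were not named by it and are not analysed here.

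The cultures were primary astrocytes of CD-1 mice, an outbred stock, dissected at postnatal day 3 from the hippocampus, the subventricular zone (a germinal layer beside the lateral ventricle), the olfactory bulb and the ventral mesencephalon (the floor of the midbrain). All were grown in DMEM with fetal bovine serum, enriched for astroglia by shaking, replated to monolayers and kept in the serum medium until RNA was taken, so every culture carried the same treatment and the brain region alone separates the groups by label. The series' text speaks of 4 littermate pups and also of 3 pooled pups. Each region was measured on 1 array, so no difference below has a replicate check, none was tested, and the number of arrays limits the precision.

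Cholesterol is built from acetyl-CoA through mevalonate, isopentenyl units and squalene, and fatty acids from acetyl-CoA through malonyl-CoA, followed by elongation and desaturation. Many of these genes are transcribed under SREBP factors, which leave the endoplasmic reticulum for the Golgi and are cleaved there when cell sterol is low. SREBP-2 (Srebf2) acts mainly on the sterol genes and SREBP-1 (Srebf1) mainly on the fatty acid genes. In the brain, which is largely cut off from lipoproteins of the blood, astrocytes make cholesterol and pass it to neurons on ApoE particles.

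The deposited signals are linear intensities. A floor was set at the median of all signals, 122.1. Signals under it were replaced by it ahead of the log2 step, so where the dimmer culture lies below the floor the true fold can be larger, and the fold is written as "at least". Of the 30 genes, 29 exceeded the floor in at least 1 culture, of 7987 such genes in all, and 22 were above it on all 4 arrays. The count above the floor was 29 in the hippocampus culture, 27 in the subventricular zone culture, 28 in the olfactory bulb culture and 22 in the ventral mesencephalon culture. The remaining gene, Acaca, which encodes the acetyl-CoA carboxylase that makes malonyl-CoA, was below the floor on every array, with signals of 14.6 in the hippocampus culture, 5.5 in the subventricular zone culture, 17.5 in the olfactory bulb culture and 6.9 in the ventral mesencephalon culture. It was read by 1 probe set, so a low transcript level and a poorly responding probe set cannot be told apart. Signals of different genes come from different probes and are not set against each other.

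The 4 arrays had trimmed mean signals of 400.1 to 400.2. Their upper ends were less alike: the 99th percentile of signal was 5619 on the hippocampus array, against 6863 to 7377 on the other 3. The hippocampus array also had more probe sets above the floor, 11835 against 11144 to 11207. For the beta-actin control, the ratio of 3 prime to 5 prime signal, a sign of RNA integrity, was 1.27 on the hippocampus array, 1.46 on the subventricular zone array, 1.30 on the olfactory bulb array and 1.49 on the ventral mesencephalon array, so its extremes fell on the same cultures as those of most genes below, while that of Gapdh lay between 0.856 and 0.917 with another order. The part of RNA integrity in the values was not tested. Of 12 astrocyte markers, 11 were above the floor on at least 1 array, and the exception, the glutamate transporter gene Slc1a2, was below it on all 4.

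**Figure D1:**
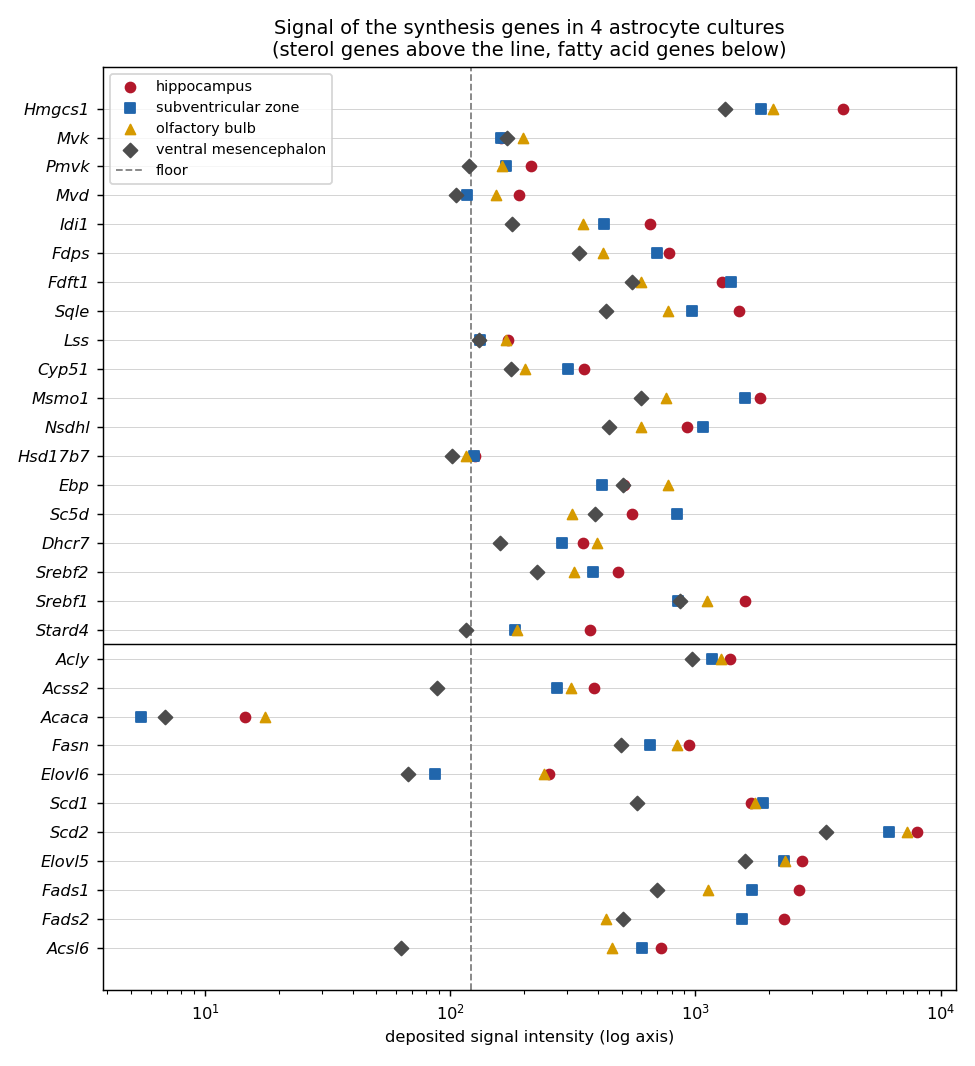
Deposited signal (log axis) of each of the 30 genes in the hippocampus, subventricular zone, olfactory bulb and ventral mesencephalon cultures, 1 array each, with the floor of 122.1 as a dashed line. The ventral mesencephalon points lie leftmost for most genes, and all 4 points of Acaca lie below the floor.

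The hippocampus culture had the highest signal of the 4 cultures for 22 of the 29 genes, where 28% of all genes above the floor were highest there. It was lowest for 0 of 29, against 19.4% of all genes. Its leads counted whatever their size, and the log2 gap to the next culture ranged from 0.01 (Hsd17b7) to 0.98 (Stard4). For most of the fatty acid genes and several sterol genes the lead was under 0.32, the median SD between probe sets given below. Examples are Lss (0.03), Scd2 (0.14) and Fasn (0.15). The ventral mesencephalon culture was highest for 0 of 29, against 20% of all genes, and lowest for 21 of 29, against 22.3%. Over the 22 genes above the floor on all 4 arrays these counts were 0 and 17. The subventricular zone culture was highest for 4 and lowest for 3 (23.3% and 19.6% of all genes), and the olfactory bulb culture highest for 3 and lowest for 2 (28.7% and 22.2%). The rest were tied at the floor.

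In the ventral mesencephalon culture, log2 signal was below the mean of the other 3 cultures for 29 of 29 genes. The ventral mesencephalon signals of Pmvk, Mvd, Hsd17b7, Stard4, Acss2, Elovl6 and Acsl6 were below the floor. With the floor in place these genes could only lie below 0 in that culture, so their sign there was fixed. The median over the 19 sterol genes was -0.79 there, with 19 of 19 below 0, and that over the 10 fatty acid genes was -1.12, with 10 of 10 below 0. The same median over all 7987 genes was -0.06, with 58.0% of genes below 0. In the hippocampus culture the sterol median was 0.67 and the fatty acid median 0.66, against 0.01 over all genes. The subventricular zone culture had a sterol median of 0.07 and a fatty acid median of 0.13 (-0.02 over all genes), and the olfactory bulb culture had a sterol median of -0.07 and a fatty acid median of 0.30 (-0.02 over all genes). Without the ventral mesencephalon array the hippocampus medians were 0.48 for sterol and 0.37 for fatty acid genes, and the subventricular zone medians were -0.15 and -0.16, below 0. Over the 22 genes above the floor on all 4 arrays, the median was 0.63 in the hippocampus culture and -0.88 in the ventral mesencephalon culture, where 22 of 22 were below 0.

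**Figure D2:**
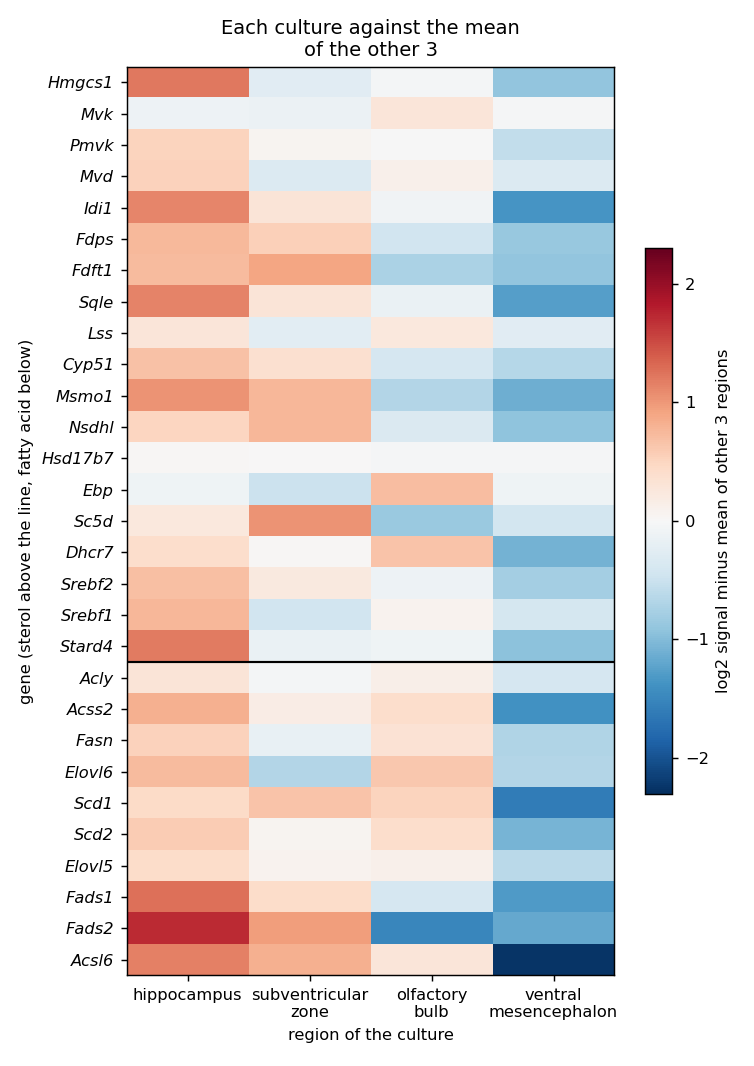
Log2 signal in each culture minus the mean of the other 3 (colour), for the 29 genes that exceeded the floor in any culture, sterol genes above the line and fatty acid genes below. The ventral mesencephalon column is below 0 for all 29 genes, and among sterol genes the largest value is that of Ebp (0.70) in the olfactory bulb column and that of Sc5d (1.04) in the subventricular zone column. For genes below the floor in the ventral mesencephalon culture, the sign in that column was fixed by the floor.

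**Figure D3:**
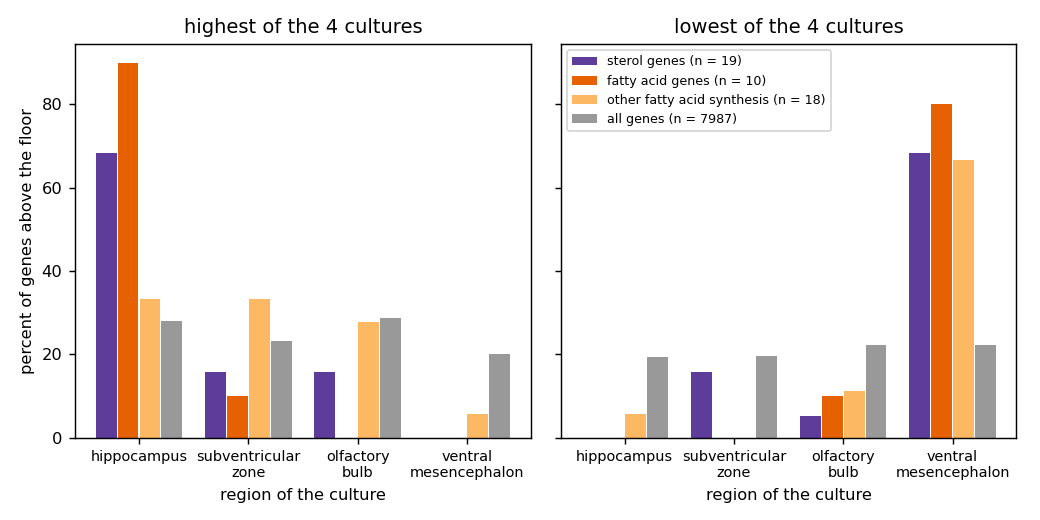
Percent of genes for which each culture was the highest (left) or the lowest (right) of the 4, for sterol genes, fatty acid genes, a list of other fatty acid synthesis genes and all genes above the floor. The hippocampus bar is tallest on the left for both gene groups (68.4% of sterol and 90% of fatty acid genes), and the ventral mesencephalon bar on the right (68.4% and 80%). A culture counts as highest or lowest whatever its gap to the next, and many gaps were small.

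A gene was called for a culture when its signal there was at least 2-fold above the highest, or below the lowest, of the other 3. By this rule 3 of the 29 genes were lower in the ventral mesencephalon culture, Acss2, Scd1 and Acsl6, all of them fatty acid genes, where 0.563% of all genes were called that way. None of the 29 was higher there (1.57% of all genes). Scd1 was called under every setting tried that keeps the ventral mesencephalon array. Under a higher floor (70th percentile of signal) it was the 1 gene called, Scd2 took the place of Acss2 with the mean of probe sets, and 5 genes were called without the subventricular zone array and 11 without the olfactory bulb array. For the other cultures 0 of 29 were called in either direction. The share of all genes called higher was 2.49% in the hippocampus culture, 1.28% in the subventricular zone culture and 1.87% in the olfactory bulb culture, and the share called lower was 0.488% in the hippocampus culture, 1.01% in the subventricular zone culture and 1.55% in the olfactory bulb culture.

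The first step of the mevalonate branch measured here is Hmgcs1, the cytosolic HMG-CoA synthase. Its signals were 4002.5 in the hippocampus culture, 1850.8 in the subventricular zone culture, 2069.8 in the olfactory bulb culture and 1323.5 in the ventral mesencephalon culture. The hippocampus value was 3.02-fold the ventral mesencephalon value, and the other 2 cultures lay between them. The kinases and the decarboxylase that follow differed less. Mvk, mevalonate kinase, had 161.8 in the hippocampus culture, 160.7 in the subventricular zone culture, 198.0 in the olfactory bulb culture and 169.7 in the ventral mesencephalon culture, and its highest signal was 1.23-fold its lowest. Pmvk, phosphomevalonate kinase, had 214.0 in the hippocampus culture, 169.4 in the subventricular zone culture, 162.5 in the olfactory bulb culture and 119.8 in the ventral mesencephalon culture, the last of these below the floor. Mvd, the mevalonate diphosphate decarboxylase, had 190.1 in the hippocampus culture, 117.6 in the subventricular zone culture, 153.3 in the olfactory bulb culture and 105.7 in the ventral mesencephalon culture, and only the hippocampus and olfactory bulb values were above the floor. Idi1, which interconverts the isopentenyl units, was spread widest of these 5 genes, with 650.4 in the hippocampus culture, 422.2 in the subventricular zone culture, 347.8 in the olfactory bulb culture and 178.4 in the ventral mesencephalon culture. Its hippocampus value was 3.65-fold its ventral mesencephalon value.

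The pair that joins isopentenyl units into squalene split the cultures into 2 and 2. Fdps, farnesyl diphosphate synthase, had signals of 778.3 in the hippocampus culture, 700.1 in the subventricular zone culture, 419.4 in the olfactory bulb culture and 336.0 in the ventral mesencephalon culture. Fdft1, squalene synthase, had 1277.7 in the hippocampus culture, 1400.8 in the subventricular zone culture, 601.8 in the olfactory bulb culture and 549.2 in the ventral mesencephalon culture. The hippocampus value was 2.32-fold the ventral mesencephalon value for Fdps and 2.33-fold for Fdft1, and the hippocampus and subventricular zone values lay above the olfactory bulb and ventral mesencephalon values for both.

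From squalene to cholesterol 9 enzymes were measured, with a median difference of 1.0 (log2) between the hippocampus and ventral mesencephalon cultures. Sqle, squalene epoxidase, which adds oxygen to squalene, had signals of 1511.9 in the hippocampus culture, 972.4 in the subventricular zone culture, 771.9 in the olfactory bulb culture and 432.4 in the ventral mesencephalon culture. Msmo1, the sterol C4-methyl oxidase, had 1831.5 in the hippocampus culture, 1590.2 in the subventricular zone culture, 756.3 in the olfactory bulb culture and 600.6 in the ventral mesencephalon culture. Both were about as far apart as Hmgcs1, 3.50-fold for Sqle and 3.05-fold for Msmo1 between the hippocampus and ventral mesencephalon cultures. Cyp51, lanosterol 14-alpha demethylase, had 351.4 in the hippocampus culture, 301.3 in the subventricular zone culture, 202.1 in the olfactory bulb culture and 176.2 in the ventral mesencephalon culture, a difference of 1.99-fold between the same cultures. Nsdhl, which acts with Msmo1 in removing the C4 methyl groups, had 924.0 in the hippocampus culture, 1070.7 in the subventricular zone culture, 601.3 in the olfactory bulb culture and 445.3 in the ventral mesencephalon culture. For Nsdhl and Fdft1 the subventricular zone culture was highest, and the ventral mesencephalon culture lowest.

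Other enzymes of this stretch lay near the floor or had another order. Lss, lanosterol synthase, had signals of 172.6 in the hippocampus culture, 131.9 in the subventricular zone culture, 169.5 in the olfactory bulb culture and 130.5 in the ventral mesencephalon culture, a range of 1.32-fold close to the floor. Hsd17b7, a 3-ketosteroid reductase, was at or near the floor in all 4 cultures, with 126.0 in the hippocampus culture, 124.9 in the subventricular zone culture, 115.5 in the olfactory bulb culture and 102.1 in the ventral mesencephalon culture. The late enzymes each had an order of their own. Ebp, the sterol isomerase, had 509.1 in the hippocampus culture, 414.8 in the subventricular zone culture, 772.1 in the olfactory bulb culture and 507.4 in the ventral mesencephalon culture, with the olfactory bulb culture highest and the hippocampus and ventral mesencephalon values almost equal. Sc5d, the sterol C5 desaturase, had 552.1 in the hippocampus culture, 837.8 in the subventricular zone culture, 313.8 in the olfactory bulb culture and 390.6 in the ventral mesencephalon culture, highest in the subventricular zone and lowest in the olfactory bulb culture, 2.67-fold apart. Dhcr7, which reduces 7-dehydrocholesterol to cholesterol, had 347.2 in the hippocampus culture, 285.0 in the subventricular zone culture, 398.1 in the olfactory bulb culture and 160.3 in the ventral mesencephalon culture. Its olfactory bulb value was the highest, and its ventral mesencephalon value was the lowest, 2.17-fold below the hippocampus value.

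The transcription factors and the transfer protein were highest in the hippocampus culture. Srebf2 had signals of 484.4 in the hippocampus culture, 380.4 in the subventricular zone culture, 319.1 in the olfactory bulb culture and 225.0 in the ventral mesencephalon culture, 2.15-fold between the hippocampus and ventral mesencephalon cultures. Srebf1 had 1591.5 in the hippocampus culture, 850.4 in the subventricular zone culture, 1115.1 in the olfactory bulb culture and 868.4 in the ventral mesencephalon culture, with the subventricular zone and ventral mesencephalon values nearly equal. Stard4, a cytosolic sterol transfer protein, had 371.1 in the hippocampus culture, 183.1 in the subventricular zone culture, 188.0 in the olfactory bulb culture and 115.9 in the ventral mesencephalon culture. It was at least 3.04-fold higher in the hippocampus than in the ventral mesencephalon culture, where it was below the floor.

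Among the enzymes that supply acetyl-CoA and build palmitate, all 3 above the floor were highest in the hippocampus and lowest in the ventral mesencephalon culture. Acly, ATP citrate lyase, had signals of 1385.0 in the hippocampus culture, 1164.0 in the subventricular zone culture, 1271.2 in the olfactory bulb culture and 972.2 in the ventral mesencephalon culture, a difference of 1.42-fold between the first and last. Acss2, the cytosolic and nuclear acetyl-CoA synthetase, was called lower in the ventral mesencephalon culture. It had 88.3 in the ventral mesencephalon culture, against 385.5 in the hippocampus culture, 273.7 in the subventricular zone culture and 309.5 in the olfactory bulb culture, and was at least 2.24-fold lower than in the next culture. Fasn, fatty acid synthase, had 937.6 in the hippocampus culture, 650.9 in the subventricular zone culture, 843.8 in the olfactory bulb culture and 496.2 in the ventral mesencephalon culture. Its hippocampus value was 1.89-fold its ventral mesencephalon value.

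The stearoyl-CoA desaturases, which make oleate and palmitoleate, were both lowest in the ventral mesencephalon culture. Scd1 was called there, with 578.7 in the ventral mesencephalon culture, against 1685.5 in the hippocampus culture, 1889.7 in the subventricular zone culture and 1756.6 in the olfactory bulb culture, and was 2.91-fold lower than in the next culture, while the other 3 values lay close together. Scd2, the main form in brain, had 8041.2 in the hippocampus culture, 6139.0 in the subventricular zone culture, 7310.0 in the olfactory bulb culture and 3402.4 in the ventral mesencephalon culture, with the hippocampus value 2.36-fold the ventral mesencephalon value. Elovl6, the elongase that extends palmitate, was above the floor in the hippocampus and olfactory bulb cultures alone, with 252.6 in the hippocampus culture, 86.9 in the subventricular zone culture, 240.2 in the olfactory bulb culture and 67.3 in the ventral mesencephalon culture. It was at least 2.07-fold higher in the hippocampus than in the ventral mesencephalon culture.

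The genes with the widest range across the cultures, Acsl6 and Fads2, belong to the handling of polyunsaturated fatty acids. Fads1, the delta-5 desaturase, had signals of 2652.1 in the hippocampus culture, 1704.0 in the subventricular zone culture, 1123.5 in the olfactory bulb culture and 698.4 in the ventral mesencephalon culture, and its hippocampus value was 3.80-fold its ventral mesencephalon value. Fads2, the delta-6 desaturase, had 2290.7 in the hippocampus culture, 1552.8 in the subventricular zone culture, 432.0 in the olfactory bulb culture and 508.8 in the ventral mesencephalon culture. For Fads2 the olfactory bulb value was the lowest, 5.30-fold below the hippocampus value, and the ventral mesencephalon value was 4.50-fold below it. Elovl5, the elongase acting between these desaturases, differed less, with 2728.9 in the hippocampus culture, 2298.3 in the subventricular zone culture, 2327.9 in the olfactory bulb culture and 1592.0 in the ventral mesencephalon culture, 1.71-fold between the hippocampus and ventral mesencephalon cultures. Acsl6, an acyl-CoA synthetase of brain with a preference for docosahexaenoate, had the largest gap of all 29. It had 62.8 in the ventral mesencephalon culture, against 723.2 in the hippocampus culture, 607.3 in the subventricular zone culture and 455.7 in the olfactory bulb culture, and was at least 3.73-fold lower in the ventral mesencephalon culture than in the next one.

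Set in pairs, the cultures that lay farthest apart were the hippocampus and the ventral mesencephalon. In the hippocampus culture 28 of the 29 genes had the higher signal (53.1% of all genes), and Mvk was the exception. At least 2-fold higher were 17 of the 29, against 9.43% of all genes, and at least 2-fold lower were 0, against 6.77%. The 17 were 10 of 19 sterol genes and 7 of 10 fatty acid genes, and the median log2 differences were 1.05 and 1.39, against 0.04 over all genes. Of the 22 genes above the floor on all 4 arrays, 21 were higher in the hippocampus culture and 13 at least 2-fold higher.

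The subventricular zone culture had 12 of 29 genes at least 2-fold higher than the ventral mesencephalon culture (5.45% of all genes) and 0 at least 2-fold lower (4.97%), with 24 of 29 higher by any amount (48.6%). Its median log2 differences from that culture were 0.76 for sterol and 1.01 for fatty acid genes. Of the 22 genes above the floor on all 4 arrays, 19 were higher in the subventricular zone culture and 10 at least 2-fold higher. Between the olfactory bulb and ventral mesencephalon cultures, 5 of 29 genes were at least 2-fold higher (5.53% of all genes), 0 at least 2-fold lower (6.46%) and 26 higher by any amount (51%). Here the sterol median of 0.38 was smaller than the fatty acid median of 0.87, and 4 of the 5 were fatty acid genes (Acss2, Scd1, Scd2 and Acsl6) beside Dhcr7. Of the same 22 genes, 20 were higher in the olfactory bulb culture and 3 at least 2-fold higher.

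Between the hippocampus and subventricular zone cultures, 25 of 29 genes were higher in the hippocampus culture by any amount (50% of all genes), but 3 were at least 2-fold higher (6.54%) and 0 at least 2-fold lower (4.95%). The sterol median was 0.30 and the fatty acid median 0.44. Between the hippocampus and olfactory bulb cultures, 25 of 29 were higher (49.6%), 4 at least 2-fold higher (8.69%) and 0 at least 2-fold lower (5.23%), with medians of 0.62 for sterol and 0.19 for fatty acid genes. The subventricular zone and olfactory bulb cultures were close as groups: 15 of 29 genes were higher in the subventricular zone culture (46.7%), 4 at least 2-fold higher (9%) and 0 at least 2-fold lower (8.39%), with medians of 0.06 and -0.07. These pairs share arrays and do not count as separate evidence.

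**Figure D4:**
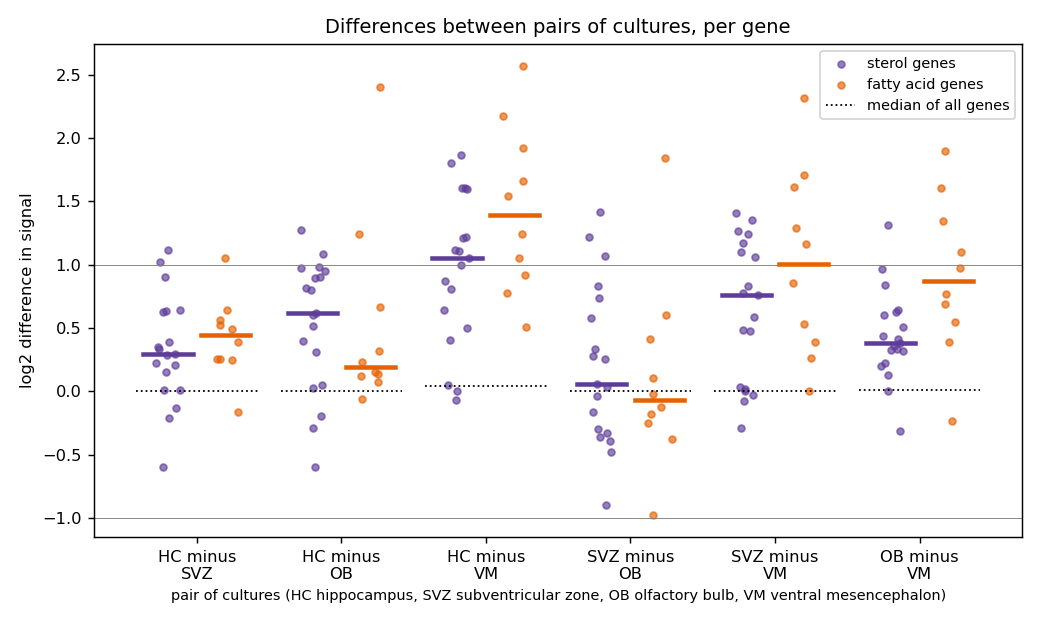
Log2 signal difference for each pair of cultures, 1 point per gene, with a bar at the median of the 19 sterol genes and of the 10 fatty acid genes and a dotted line at the median of all 7987 genes. The hippocampus minus ventral mesencephalon medians, 1.05 and 1.39, are the largest of the 6 pairs.

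Probe sets of the same gene give a check on the measurement within these arrays, not on the cultures. Across 1977 genes with a pair of probe sets that exceeded the floor in every culture, the difference between their log2 differences had an SD scaled from the median absolute value of 0.29 for the hippocampus and ventral mesencephalon cultures and 0.32 as the median over all pairs of cultures, where the plain SDs were 0.39 and 0.41. Of the 30 genes, 13 had at least 2 probe sets above the floor on at least 1 array. All 13 had their probe sets on the same side between the hippocampus and ventral mesencephalon cultures. For Idi1, Cyp51, Stard4 and Acss2 the other probe set was above the floor in the hippocampus culture alone. With the floor in place, that probe set could only lie on the hippocampus side, so for these genes it is no check of direction. For Mvd and Elovl6 both probe sets were below the floor in the ventral mesencephalon culture, so their side was fixed as well. For the 4 probe sets of Hmgcs1 the log2 difference was 1.60, 1.67, 1.93 and 1.96, and for both probe sets of Fads2 it was 2.17 and 2.15. The sizes were less alike for other genes. Idi1 had 1.87 and 0.47, Stard4 1.60 and 0.13, and Cyp51 1.0 and 0.15, the smaller value each time against a ventral mesencephalon signal below the floor. Scd2 had 1.24, 1.66 and 2.03 with all 3 probe sets above the floor on every array.

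Other pairs of cultures were less even between probe sets. The probe sets were on the same side for 12 of 13 genes between the hippocampus and subventricular zone cultures (the exception was Acly) and for 11 of 13 between the hippocampus and olfactory bulb cultures, where Elovl6 and Scd2 had probe sets on both sides. In both pairs the side of the other probe set of Idi1, Cyp51, Stard4 and Acss2 was again fixed by the floor. Both probe sets of Mvd and of Elovl6 were below the floor in the subventricular zone and ventral mesencephalon cultures. Their side was therefore fixed wherever either of these was paired with the hippocampus or olfactory bulb culture. Between the subventricular zone and ventral mesencephalon cultures 7 of 13 were on the same side, and between the olfactory bulb and ventral mesencephalon cultures 9 of 13. The other 6 and 4 genes had a probe set below the floor in both cultures, hence with no difference, and 0 had probe sets on opposite sides. Between the subventricular zone and olfactory bulb cultures 6 of 13 were on the same side, 4 had such a probe set and 3 (Hmgcs1, Srebf2 and Acly) had probe sets on opposite sides. Another Scd2 probe set had a signal of 914.9 in the hippocampus culture and 1351.4 in the olfactory bulb culture. Acsl6, Scd1, Fads1, Sqle and Msmo1 had no second probe set above the floor.

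**Figure D5:**
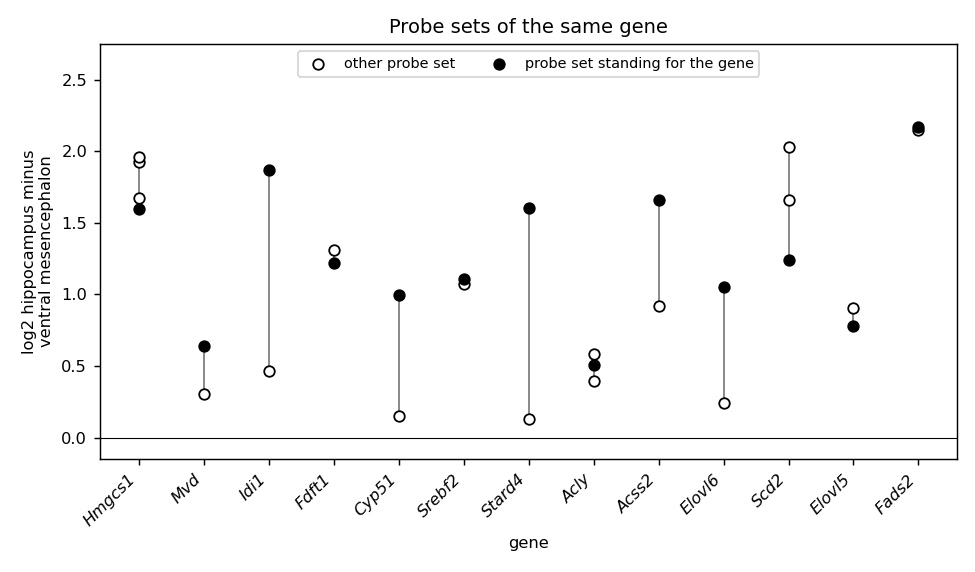
Log2 difference between the hippocampus and ventral mesencephalon cultures for each probe set above the floor, for the 13 genes with more than 1, with the probe set standing for the gene filled. All points lie above 0, and the lowest is the second Stard4 probe set at 0.13. The open points of Idi1, Cyp51, Stard4 and Acss2 were above the floor in the hippocampus culture alone, so their side was fixed. All points of Mvd and Elovl6 were below the floor in the ventral mesencephalon culture, so their side was fixed too.

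Promoter sequences were set beside these values because SREBP factors act at sterol regulatory elements and E-boxes, commonly next to CCAAT boxes bound by NF-Y. RefSeq promoters (mouse build GRCm38.p6, 250 bases before to 50 after each listed start) were found for 23 of the 30 genes. A CCAAT box (CCAAT on either strand) was present in 20 of the 23, 87.0%, against 41.1% of 27025 genes with a promoter and 43.1% of the 6503 of these above the floor. All 15 sterol genes and 5 of 8 fatty acid genes held one, and Acaca, Elovl6 and Fads2 did not. An E-box (CACGTG, the same on both strands) was present in 4 of the 23 genes, 17.4%, against 8.09% of all and 12.2% of those above the floor. The 4 were Hsd17b7, Sc5d, Dhcr7 and Elovl5. A sterol regulatory element of the form TCACNCCAC, searched on both strands, was found in Hmgcs1 alone, against 1.44% of all genes. Genes with several listed starts counted once if any start held the motif, and no motif contains another. A match is a description of letters and not a binding site.

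The promoters below are those of genes above the floor in all 4 cultures that hold an element or an E-box, so that a gene widely separated between the cultures (Hmgcs1) can be read beside one highest in the olfactory bulb (Dhcr7), one highest in the subventricular zone (Sc5d) and a fatty acid elongase (Elovl5). Each is given 5′ to 3′ on the strand of the gene, in lower case with motif matches in capitals (ATTGG is CCAAT on the other strand). Hmgcs1 lies at chr13:119690101-119690400 on the plus strand, with CCAAT boxes at 237, 176 and 45 bases before the start, another after it, and the element between those at 176 and 45. Dhcr7 lies at chr7:143823149-143823448 on the plus strand, shown for the second of its 3 listed starts, with the E-box 164 bases before it. Sc5d lies at chr9:42264251-42264550 on the minus strand, with the E-box 98 bases and the CCAAT box 24 bases before the start. Elovl5 lies at chr9:77917115-77917414 on the plus strand, with the E-box 161 bases and CCAAT boxes 71 and 17 bases before the start.
Hmgcs1: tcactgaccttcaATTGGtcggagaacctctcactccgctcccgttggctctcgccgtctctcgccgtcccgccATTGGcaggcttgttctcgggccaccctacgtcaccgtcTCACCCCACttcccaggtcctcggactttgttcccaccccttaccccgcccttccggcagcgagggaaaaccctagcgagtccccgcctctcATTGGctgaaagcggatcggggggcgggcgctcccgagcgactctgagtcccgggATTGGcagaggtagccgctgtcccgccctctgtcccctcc
Dhcr7: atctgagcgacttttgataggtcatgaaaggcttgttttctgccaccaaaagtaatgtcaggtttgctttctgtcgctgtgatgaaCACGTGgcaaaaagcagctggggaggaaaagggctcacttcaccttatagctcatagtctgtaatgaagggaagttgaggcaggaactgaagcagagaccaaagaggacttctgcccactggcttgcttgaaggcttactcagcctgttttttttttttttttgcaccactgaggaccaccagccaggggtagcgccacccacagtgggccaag
Sc5d: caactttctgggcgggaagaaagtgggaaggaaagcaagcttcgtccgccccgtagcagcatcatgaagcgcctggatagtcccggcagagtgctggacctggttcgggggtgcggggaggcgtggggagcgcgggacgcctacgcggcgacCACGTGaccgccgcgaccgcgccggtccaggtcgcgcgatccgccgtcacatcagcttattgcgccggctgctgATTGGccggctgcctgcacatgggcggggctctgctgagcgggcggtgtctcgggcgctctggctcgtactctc
Elovl5: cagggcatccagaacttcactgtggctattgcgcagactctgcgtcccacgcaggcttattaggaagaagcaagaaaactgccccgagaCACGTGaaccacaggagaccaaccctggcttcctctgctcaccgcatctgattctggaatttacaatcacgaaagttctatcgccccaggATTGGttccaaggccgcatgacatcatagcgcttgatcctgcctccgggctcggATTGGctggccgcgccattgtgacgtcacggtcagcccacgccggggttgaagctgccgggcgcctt

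Ebp and Sc5d, whose signals were ordered differently across the cultures, held a CCAAT box as Hmgcs1 and Idi1 did, and the widely separated Fads2 held none of these motifs in its window. No tie between a motif and the order of the cultures was tested.

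Other genes of the same pathways were read from lists of genes outside the 32. Of 18 other fatty acid synthesis genes above the floor (28 listed), the ventral mesencephalon culture was lowest for 12 (66.7%, against 22.3% of all genes). The hippocampus and subventricular zone cultures were each highest for 6 (33.3%, against 28% and 23.3% of all genes) and the olfactory bulb culture for 5. Their median difference from the mean of the other cultures was -0.50 (log2) in the ventral mesencephalon culture and 0.18 in the hippocampus culture. By the 2-fold rule 2 of the 18 were called higher in the hippocampus culture (2.49% of all genes) and 1 in the subventricular zone culture (1.28%). Thrsp, a regulator of lipid synthesis, had signals of 731.8 in the hippocampus culture, 76.3 in the subventricular zone culture, 104.0 in the olfactory bulb culture and 20.4 in the ventral mesencephalon culture, at least 5.99-fold higher in the hippocampus culture than in any other. Acss1, the mitochondrial acetyl-CoA synthetase, had 343.7 in the hippocampus culture, 151.3 in the subventricular zone culture, 73.8 in the olfactory bulb culture and 21.5 in the ventral mesencephalon culture. Cyb5b, the outer mitochondrial membrane form of cytochrome b5, had 1339.3 in the hippocampus culture, 2752.4 in the subventricular zone culture, 1253.3 in the olfactory bulb culture and 873.7 in the ventral mesencephalon culture.

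Mid1ip1 and Hacd2 were picked out after their values were seen. Mid1ip1, a relative of Thrsp that promotes polymerisation of acetyl-CoA carboxylase, had signals of 4421.5 in the hippocampus culture, 3638.4 in the subventricular zone culture, 1863.6 in the olfactory bulb culture and 1148.5 in the ventral mesencephalon culture, in the same order as Idi1 and Sqle. Hacd2, a 3-hydroxyacyl-CoA dehydratase of the elongation cycle, had 2359.7 in the hippocampus culture, 2276.6 in the subventricular zone culture, 996.4 in the olfactory bulb culture and 916.3 in the ventral mesencephalon culture.

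Genes around the sterol branch had medians of smaller size, and of either sign, in the hippocampus and ventral mesencephalon cultures. The 19 sterol genes had medians of 0.67 and -0.79 there, and the difference from them was not tested. Of 10 other sterol synthesis genes 5 were above the floor, and their median was -0.04 in the hippocampus culture and -0.16 in the ventral mesencephalon culture, with 0 called. Of 11 other SREBP pathway genes 6 were above the floor, with medians of 0.08 in the hippocampus culture, -0.61 in the subventricular zone culture, 0.44 in the olfactory bulb culture and 0.12 in the ventral mesencephalon culture, and 0 called.

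The makeup of the cultures also differed by marker genes. The summed signal of 12 astrocyte markers was 36162.5 in the hippocampus culture, 24687.4 in the subventricular zone culture, 24412.6 in the olfactory bulb culture and 14698.4 in the ventral mesencephalon culture, so its highest and lowest cultures were those of the synthesis genes. Within that list the order varied. Gfap had 10026.6 in the hippocampus and 1007.2 in the ventral mesencephalon culture, whereas Gja1 had 5549.5 and 5987.7.

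Summed over 14 microglia and macrophage markers, the signal was 38399.9 in the hippocampus culture and 35657.8 in the olfactory bulb culture, against 584.3 in the subventricular zone culture and 383.7 in the ventral mesencephalon culture, where 2 and 0 of the 14 were above the floor. Between these 2 cultures low in microglial markers the medians were 0.76 for sterol and 1.01 for fatty acid genes, as given above. The same 2 cultures also differed in the astrocyte sums above and the fibroblast sums that follow, and no marker group's part was tested. Fibroblast and meningeal markers (14 genes) summed to 29412.4 in the hippocampus culture, 9325.2 in the subventricular zone culture, 72749.2 in the olfactory bulb culture and 53010.8 in the ventral mesencephalon culture.

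Oligodendrocytes also make much cholesterol, and 11 of 14 markers of that lineage were named on the array, 5 of them above the floor. Their sum was 6543.4 in the hippocampus culture, 5802.0 in the subventricular zone culture, 2332.6 in the olfactory bulb culture and 2155.1 in the ventral mesencephalon culture. Cnp, a gene of oligodendrocytes and their progenitors, was called higher in the hippocampus culture, with 3285.9 there, 1608.2 in the subventricular zone culture, 1489.1 in the olfactory bulb culture and 1104.2 in the ventral mesencephalon culture, and its highest and lowest cultures were those of the synthesis genes. The myelin genes Mog, Mag, Mobp and Ugt8a were below the floor on all 4 arrays and Mbp reached 159.0 in the hippocampus culture. Cspg4 and Myrf, also on the list of this lineage, were likewise below the floor on all 4 arrays. Most of the summed signal was that of Cnp and Olig1. Olig1, a gene of the progenitors, had 2700.0 in the hippocampus culture, 3805.0 in the subventricular zone culture, 171.1 in the olfactory bulb culture and 620.7 in the ventral mesencephalon culture. Olig2 was above the floor in the hippocampus (241.0) and subventricular zone (243.9) cultures alone. Sox10 went another way, above the floor in the olfactory bulb culture alone (355.4) and called higher there. Cell cycle genes (11) summed to 10093.6 in the hippocampus culture, 10963.8 in the subventricular zone culture, 5477.9 in the olfactory bulb culture and 8680.0 in the ventral mesencephalon culture. By the median difference (log2) from the mean of the other cultures, the hippocampus culture was highest instead, at 0.67. That median was -0.05 in the subventricular zone culture, -0.91 in the olfactory bulb culture and 0.41 in the ventral mesencephalon culture. Neuronal markers, 4 of 12 above the floor, summed highest in the subventricular zone culture, at 4815.1, and lowest in the olfactory bulb culture, at 682.9. Stmn2 alone had 3464.6 in the subventricular zone culture, while Snap25, Rbfox3, Dcx and Map2 were among those below the floor on all 4 arrays. Endothelial and pericyte markers, 4 of 12 above the floor, summed to between 15289.3 (hippocampus) and 17861.6 (ventral mesencephalon). Most of that sum was Acta2 and Tagln, which differed little across the cultures. Rgs5 was called higher in the olfactory bulb culture (655.1) and Cdh5 in the ventral mesencephalon culture (254.5). The part of these differences in the synthesis gene values was not tested, and in RNA of a whole culture fewer cells of a type and less RNA per cell cannot be told apart.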

How the data were processed

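The deposited values are linear signal intensities of 22690 probe sets on 4 arrays, which the authors made with GCOS 1.4 per the submitters' processing notes. The algorithm is not given in the sources used here. Values were used with no further scaling, since all arrays share a 2% trimmed mean near 400.1. Probe sets with 1 symbol (20380; 691 had several, 1555 none listed, 64 were controls) were kept, 20351 of them matched to a RefSeq gene table, and where a gene had several, the one brightest on average (mean log2) stood for it. No log2 value was tested, because each region has 1 array; lists are described by counts and medians beside the same over all genes. All 32 listed genes were named where measured, and of the other pathway genes those called 2-fold apart from every other culture, with exceptions marked. Promoters come from RefSeq tables and are printed for genes above the floor that hold a sterol element or E-box. The gene lists, marker lists and rules were chosen with earlier results of these data known. Calculations used Python 3.11.15, numpy 2.4.6 and pandas 2.3.3, were tested on simulated data, and were repeated under another floor, probe set rule or normalization and without each array in turn.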

Additional observations from a re-analysis of the deposited data

How the results depend on the processing

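The alternatives were run for the sterol and fatty acid lists, not for the lists of other pathway genes. No direction of a sterol or fatty acid median turned under another floor (30th or 70th percentile of signal), the mean of probe sets, only specific probe sets, quantile normalization, median centring or, chosen after seeing the data, only genes above the floor on all 4 arrays, except the sterol median of the subventricular zone culture, which lay between -0.01 and 0.29, and the fatty acid difference of the subventricular zone minus the olfactory bulb culture, which reached 0. The sterol median stayed between 0.51 and 0.72 in the hippocampus culture and between -0.86 and -0.49 in the ventral mesencephalon culture. Under the higher floor (70th percentile) the fatty acid median in the ventral mesencephalon culture was -0.70, its hippocampus minus ventral mesencephalon difference 1.0 and its olfactory bulb minus ventral mesencephalon difference 0.55, and 1 gene (Scd1) was called lower in the ventral mesencephalon culture; under the lower floor (30th percentile) the hippocampus minus ventral mesencephalon difference was 1.73. Hmgcs1 was the 1 gene called higher in the hippocampus culture with the mean of probe sets, specific probe sets and quantile normalization. Leaving out each other array moved the olfactory bulb medians between -0.43 and 0.25 (sterol) and between -0.046 and 0.62 (fatty acid), the subventricular zone medians between -0.15 and 0.27 (sterol) and between -0.16 and 0.40 (fatty acid), the hippocampus medians between 0.48 and 0.84 (sterol) and between 0.37, without the ventral mesencephalon array, and 0.93 (fatty acid), the count called higher in the hippocampus culture between 0 and 4, in the subventricular zone culture between 0 and 4, the count called lower in the olfactory bulb culture between 0 and 3 and in the ventral mesencephalon culture between 3 and 11. For the ventral mesencephalon culture the count was 11 without the olfactory bulb array and 5 without the subventricular zone array. For the hippocampus culture it was 4 without the subventricular zone array and 3 without the olfactory bulb array, for the subventricular zone culture 4 without the hippocampus array, and for the olfactory bulb culture 3 without the ventral mesencephalon array. No paired analysis was possible because each region has 1 array.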

Other observations

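Genes that handle cholesterol after its synthesis had no common order across the cultures. Of 10 genes of the liver X receptor, efflux and oxysterol list above the floor (13 listed), the median difference (log2) from the mean of the other cultures was 0.15 in the hippocampus culture, 0.05 in the subventricular zone culture, 0.06 in the olfactory bulb culture and -0.05 in the ventral mesencephalon culture. The enzymes that make and remove 25-hydroxycholesterol, an oxysterol that holds back SREBP processing, were the ones called. Of the 10 genes, 1 was called higher in the hippocampus culture (2.49% of all genes) and 1 in the subventricular zone culture (1.28%). Called lower were 1 in the subventricular zone culture (1.01%) and 1 in the olfactory bulb culture (1.55%). Ch25h, cholesterol 25-hydroxylase, had signals of 1745.4 in the hippocampus culture, 176.6 in the subventricular zone culture, 665.9 in the olfactory bulb culture and 626.0 in the ventral mesencephalon culture, which made it 2.62-fold higher in the hippocampus culture and 3.54-fold lower in the subventricular zone culture than in the next one. Cyp7b1, oxysterol 7-alpha-hydroxylase, had 323.2 in the hippocampus culture, 913.2 in the subventricular zone culture, 72.6 in the olfactory bulb culture and 429.4 in the ventral mesencephalon culture, 2.13-fold higher in the subventricular zone culture and at least 2.65-fold lower in the olfactory bulb culture than in the next one. Ch25h is also made by macrophages, and the summed microglia and macrophage markers were 38399.9 in the hippocampus culture, 584.3 in the subventricular zone culture, 35657.8 in the olfactory bulb culture and 383.7 in the ventral mesencephalon culture. The olfactory bulb and ventral mesencephalon cultures, far apart in these markers, had nearly equal Ch25h signals, and the markers' part in the Ch25h values was not tested.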
